A study of Mus musculus with 8 samples.

Results

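The repressors of the circadian clock, 8 genes of the 52636 gene identifiers counted, were followed in the lungs of control mice and of a mouse model of chronic obstructive pulmonary disease (COPD). They were the 3 period genes Per1, Per2 and Per3, the cryptochromes Cry1 and Cry2, Ciart, which encodes CHRONO, and Bhlhe40 and Bhlhe41, which encode DEC1 and DEC2. The genes were chosen by name, since earlier results of the same data had shown clock genes to differ between control mice and the model. Their difference in this contrast is therefore given as a description, and calls in it are not read as a test. The effects of the diet were tested.

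All mice were male C57BL/6 mice without an altered gene, kept with the light on from 8 AM to 8 PM. Control mice on the control diet received phosphate-buffered saline (PBS) in the airway. Control mice on the TJ-41 diet received PBS and, from 8 weeks of age, a diet with 2% TJ-41 (hochuekkito), a Japanese herbal medicine. The COPD mice model fed the control diet received porcine pancreatic elastase (PPE) in the trachea at 10 weeks of age and lipopolysaccharide (LPS) from 12 weeks. The last group, the model with TJ-41, received PPE, LPS and the TJ-41 diet. Elastase with LPS is a model of emphysema with inflammation and involves no smoke. Each of the 4 groups had 2 of the 8 RNA sequencing libraries of lung, and nothing in the sources used here says whether the 2 libraries of a group came from separate mice. P-values therefore measure only the spread between these libraries, which may be technical. The age and the hour at which the lungs for RNA were taken are not given in the sources used here.

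In the mammalian clock, CLOCK and BMAL1 (the product of Arntl) bind E-boxes and switch on Per, Cry, Ciart and Bhlhe genes together with Dbp and Nr1d1. PER and CRY proteins then assemble, enter the nucleus and stop CLOCK and BMAL1 from working. DEC1 and DEC2 compete for the E-boxes, and CHRONO binds BMAL1. REV-ERB proteins, encoded by Nr1d1 and Nr1d2, shut off Arntl in a second loop, and DBP, TEF and HLF activate D-boxes such as those of the Per genes. In the lung, as in other organs, the RNA of these genes swings over the day, so that a difference between groups and a difference in the hour of collection cannot be told apart here.

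The E-box (CACGTG) and D-box (TTANGTAA, with N any base) that this loop uses were searched on both strands of the RefSeq promoters of GRCm38.p6, with the RORE core (TAGGTCA) and the cyclic AMP response element (TGACGTCA). Of the 8 genes, 6 had a promoter in the table, with 7 windows in all, since Per1 had 2 start sites. Each window ran from 250 bases before to 50 bases after a start site. Per2 and Bhlhe40 are named only. An E-box was found in 4 of the 7 windows and in 7.15% of all 32851 windows. The window of Ciart held 3 E-boxes, a number reached by 0.0883% of all windows. The window of Per3 held 2 D-boxes, reached by 0.0822%. The RORE core (2.61% of all windows) and the cyclic AMP response element (1.79%) were in none of the 7, and the windows of Cry2 and of the second Per1 start held none of the 4 motifs. The stretches that hold the motifs are shown 5′ to 3′ on the strand of the gene, with the motif in capitals, so that their number and spacing can be compared. No match overlapped another. Such a match is a description of the letters and not evidence of binding.
Ciart, chr3:95882255-95882356, minus strand, from -128 to -27 of the start site: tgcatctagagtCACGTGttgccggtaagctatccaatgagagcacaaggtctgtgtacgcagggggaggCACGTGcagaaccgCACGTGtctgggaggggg
Cry1, chr10:85185097-85185126, minus strand: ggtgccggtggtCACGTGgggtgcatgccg
Per1, chr11:69098771-69098800, plus strand: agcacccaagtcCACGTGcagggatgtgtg
Bhlhe41, chr6:145865556-145865585, minus strand: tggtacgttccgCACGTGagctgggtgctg
Per3, chr4:151044804-151044882, minus strand, from -217 to -139: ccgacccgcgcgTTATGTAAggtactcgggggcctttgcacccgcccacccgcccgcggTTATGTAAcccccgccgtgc
The stretches of Ciart, Cry1, Per1 and Per3 lie outside GENCODE exons, and that of Bhlhe41 has 3 bases in one.

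**Figure D1:**
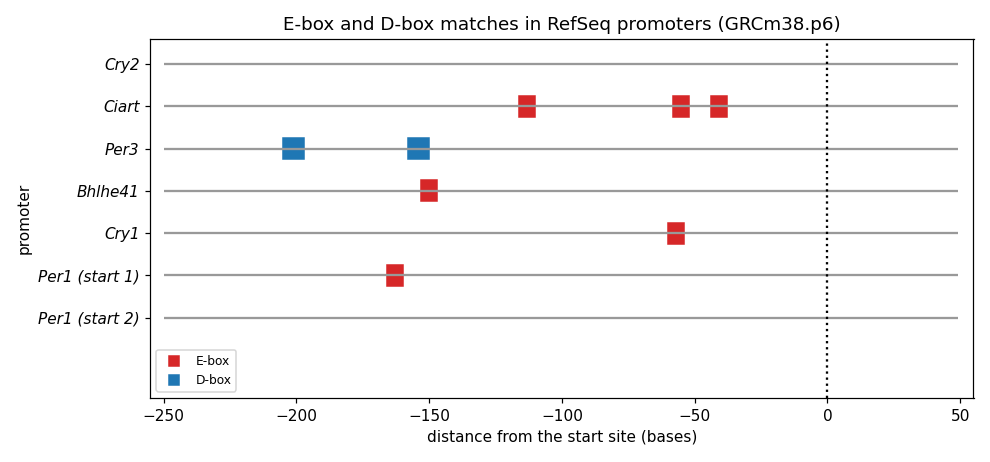
E-boxes (red) and D-boxes (blue) in the 7 RefSeq promoter windows of the repressor genes, by distance from the start site in bases. Ciart carries 3 E-boxes upstream of its start, Per3 carries 2 D-boxes, and Cry2 and the second start of Per1 carry neither motif.

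The libraries held 18767295 to 20888042 counts, and all 8 repressor genes passed the filter on low counts. The lowest count of any of them was 149, for Ciart in the first library of control mice without TJ-41. Levels are counts scaled to a common library total (CPM) with TMM factors, and 3 counts, the most that a count of 0 allows, correspond to 0.153 to 0.162 CPM. The control-diet replicates of the model stood apart from each other, with an SD of the log2 difference between them of 0.80 over all genes tested, against 0.39 to 0.47 in the other groups. Values that rest on these replicates are therefore also given without each of them where they moved by over 1.5 times.

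In every one of the 8 repressor genes, all 4 libraries of the COPD mice model lay above all 4 libraries of control mice. This order was found in 3.35% of the 20546 genes tested, and nothing is read from the comparison, since the choice of the genes used it. The summed level of the 8 genes was 222 to 345 CPM in the control mice libraries and 648 to 856 CPM in the COPD mice model libraries. The size of the difference varied widely within the family, from Bhlhe41 and the later period genes Per2 and Per3 at one end to the cryptochromes at the other. The median log2 fold change of the 8 genes was 1.28 on the control diet and 1.17 on the TJ-41 diet, beside a median over all genes tested of 0.0073 and -0.0016.

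A gene counted as a DEG when its Benjamini-Hochberg adjusted p from the quasi-likelihood test of edgeR was under 0.05 and it changed more than 2-fold. For the model against control mice, calls of repressors only describe the values, since the choice of the genes used this contrast, and nothing is read from their number. On the control diet 3 of the 8 genes were called higher in the COPD mice model (Per2, Per3 and Bhlhe41), beside 0.102% of all genes tested. On the TJ-41 diet 2 were called higher (Per3 and Bhlhe41), beside 0.0584% of all genes. These counts rest on few libraries. On the control diet the count was 0 without replicate 1 of the control-diet control mice, 1 without either TJ-41 library of control mice, 2 without the other control-diet library of control mice or either TJ-41 library of the model, and 5 without replicate 1 of the control-diet model. On the TJ-41 diet it was 0 without either TJ-41 library of control mice, 1 without replicate 1 of the model on TJ-41, and 4 without either control-diet library of the model.

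**Figure D2:**
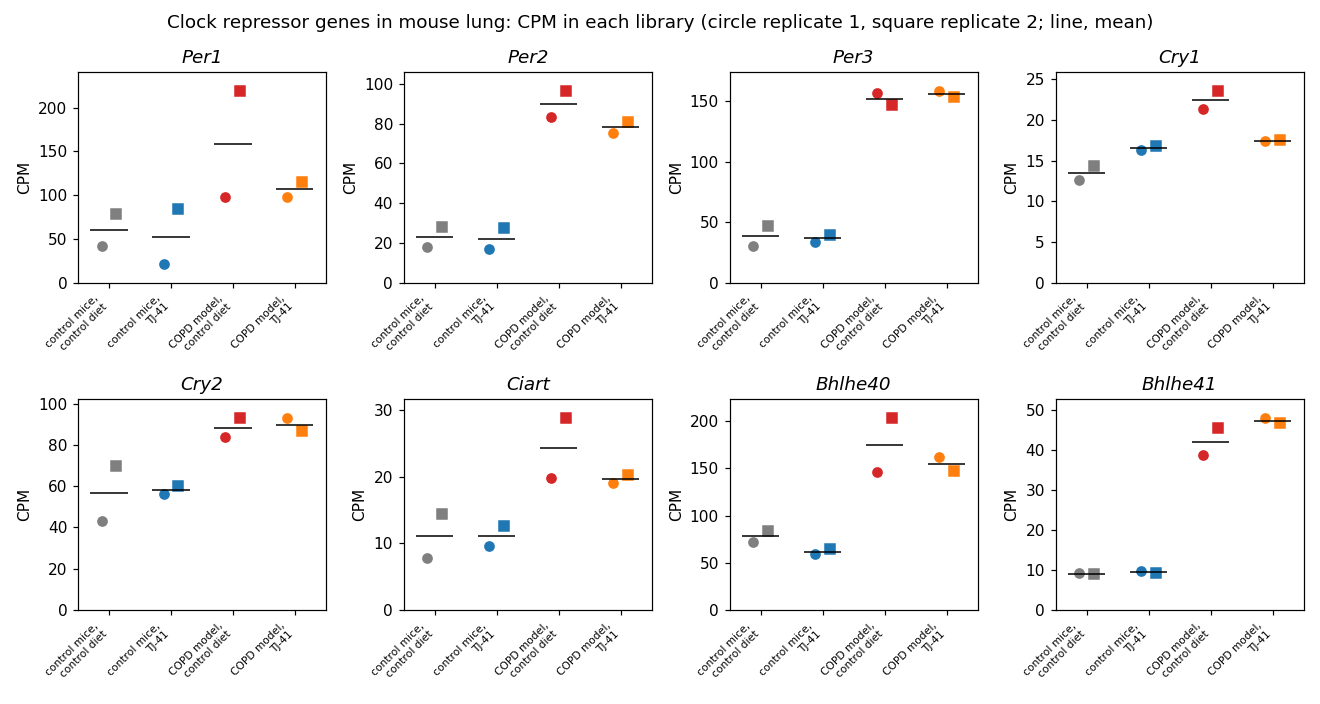
CPM (linear axis from 0) of the 8 repressor genes in each library, with circles for replicate 1, squares for replicate 2 and a line at the mean of each of the 4 groups. All model libraries lie above all control mice libraries in each panel, by a wide gap for Bhlhe41, Per3 and Per2 and by a narrow one for Cry1 and Per1.

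Per1 (ENSMUSG00000020893, chromosome 11, 69095217-69109960, plus strand, GRCm38) encodes the period protein whose gene also answers acutely to glucocorticoids and to cyclic AMP. It had 41.7 and 78.5 CPM in control mice on the control diet, 21.5 and 84.0 CPM in control mice on TJ-41, 97.5 and 219 CPM in the model on the control diet and 98.2 and 116 CPM in the model on TJ-41. The replicates of a group differed by up to 3.90-fold, the widest spread among the 8 genes, and the lowest model library was only 1.16 times the highest control mice library. The log2 fold change of the model was 1.40 (SE 0.59) on the control diet and 1.02 (SE 0.58) on TJ-41. Without replicate 2 of the model on the control diet, which held the 219 CPM, the first value was 0.70, and without replicate 1 it was 1.86. On TJ-41 it ran from 0.35 to 2.31 with single libraries left out.

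Per1 was set beside genes of other acute responses. Tsc22d3, a glucocorticoid target, had 98.0 and 152 CPM in control mice on the control diet, 80.1 and 254 CPM in control mice on TJ-41, 176 and 403 CPM in the model on the control diet and 133 and 181 CPM in the model on TJ-41, so that the library with more Per1 also had more Tsc22d3 in each group. Tsc22d3 was picked after its values were seen, and the same held for only 3 of the 9 glucocorticoid response genes (Fkbp5, Tsc22d3 and Dusp1) and for 5 of the 8 immediate early genes. The summed level of the 8 immediate early genes ran from 341 to 451 CPM in control mice, from 535 to 815 CPM in the model on the control diet and from 284 to 479 CPM in the model on TJ-41. For the 9 glucocorticoid response genes it ran from 476 to 798 CPM in control mice, from 673 to 1041 CPM in the model on the control diet and from 586 to 721 CPM in the model on TJ-41. The part of these responses in the level of Per1 was not tested.

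Per2 (ENSMUSG00000055866, chromosome 1, 91415982-91459324, minus strand) encodes a core partner of the cryptochromes. Its level was 17.7 and 27.9 CPM in control mice on the control diet and 16.8 and 27.6 CPM in control mice on TJ-41. In the COPD mice model it was 83.3 and 96.3 CPM on the control diet and 75.5 and 80.8 CPM on TJ-41. The lowest model library thus held 2.70 times the level of the highest control mice library. On the log2 scale the model was higher by 1.98 (SE 0.28) on the control diet and 1.82 (SE 0.28) on TJ-41.

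Per3 (ENSMUSG00000028957, chromosome 4, 151003652-151044665, minus strand) encodes the period protein that is dispensable for the core rhythm in mice, and its promoter carries the 2 D-boxes shown above. It had 30.8 and 47.0 CPM in control mice on the control diet, 33.3 and 39.8 CPM in control mice on TJ-41, 157 and 147 CPM in the model on the control diet and 159 and 153 CPM in the model on TJ-41. The model libraries were close to each other and all at least 3.12 times the highest control mice library. The log2 fold change was 1.97 (SE 0.22) on the control diet and 2.09 (SE 0.22) on TJ-41. The annotated spans of Per3 and Camta1, on the same strand, overlap, but they share 0 exonic bases.

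Among the period genes, the balance between Per3 and Per2 overlapped between the groups, with the level of Per3 per kb of exons at 0.879 to 1.21 times that of Per2 in control mice and at 0.930 to 1.28 times in the COPD mice model. Per kb, Per1 stood at 1.34 to 3.16 times Per2 in control mice and at 1.22 to 2.36 times in the model.

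Cry1 (ENSMUSG00000020038, chromosome 10, 85131700-85185064, minus strand) encodes the stronger of the cryptochrome repressors. It had 12.7 and 14.3 CPM in control mice on the control diet, 16.2 and 16.8 CPM in control mice on TJ-41, 21.3 and 23.5 CPM in the model on the control diet and 17.4 and 17.5 CPM in the model on TJ-41. None of the groups overlapped, but the TJ-41 groups lay so close that the lowest model library was 1.03 times the highest control mice library. The log2 fold change of the model was 0.73 (SE 0.18) on the control diet and 0.077 (SE 0.18) on TJ-41. It was the only one of the 8 genes whose model difference on TJ-41 was smaller than its standard error.

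Cry2 (ENSMUSG00000068742, chromosome 2, 92403646-92434043, minus strand), the other cryptochrome, had 43.3 and 69.7 CPM in control mice on the control diet and 56.2 and 59.9 CPM in control mice on TJ-41. In the COPD mice model it had 83.9 and 92.9 CPM on the control diet and 92.9 and 86.9 CPM on TJ-41. The diets overlapped within control mice and within the model. The log2 fold change of the model was 0.65 (SE 0.22) on the control diet and 0.63 (SE 0.22) on TJ-41. On the control diet it was 0.35 without replicate 1 and 1.03 without replicate 2 of control mice, whose levels were 1.61-fold apart. An antisense transcript, D930015M05Rik, shares 295 exonic bases with Cry2 and had 283 counts in all libraries together, beside 11277 for Cry2, and the strand setting of the counting is not given in the sources used here. Per kb of exons, Cry2 stood at 1.81 to 2.57 times the level of Cry1 in control mice and at 2.08 to 2.83 times in the model.

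Ciart (ENSMUSG00000038550, chromosome 3, 95878503-95882251, minus strand) encodes CHRONO, which holds BMAL1 in check, and has the 3 E-boxes shown above. It had 7.79 and 14.4 CPM in control mice on the control diet, 9.63 and 12.5 CPM in control mice on TJ-41, 19.9 and 28.8 CPM in the model on the control diet and 19.0 and 20.2 CPM in the model on TJ-41. The spread within control mice on the control diet was 1.85-fold. This gave a log2 fold change of 1.13 (SE 0.31) on the control diet and 0.82 (SE 0.31) on TJ-41. On the control diet it was 0.76 without replicate 1 and 1.64 without replicate 2 of control mice. Its antisense neighbour C920021L13Rik shares 0 exonic bases with it.

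Bhlhe40 (ENSMUSG00000030103, chromosome 6, 108660629-108666925, plus strand) encodes DEC1, which also acts in the responses to hypoxia and in immune cells. It had 72.0 and 84.0 CPM in control mice on the control diet, 59.0 and 64.1 CPM in control mice on TJ-41, 146 and 203 CPM in the model on the control diet and 162 and 147 CPM in the model on TJ-41. The lowest model library was 1.74 times the highest control mice library. For the model, the log2 fold change was 1.16 (SE 0.19) on the control diet and 1.33 (SE 0.20) on TJ-41. The antisense gene 0610040F04Rik shares 118 exonic bases with it and had 15 counts in all. The summed level of the 10 genes of the hypoxia list was 1097 to 1222 CPM in control mice and 910 to 1021 CPM in the COPD mice model, most of it from Vegfa, at 923 to 1043 CPM and 723 to 818 CPM. The other hypoxia genes together had 162 to 179 CPM in control mice and 171 to 298 CPM in the model. Of the 10 genes, 8 had a positive log2 fold change in the model on each diet, with a median of 0.38 on the control diet and 0.21 on TJ-41, and none of them was called in any comparison.

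Bhlhe41 (ENSMUSG00000030256, chromosome 6, 145858243-145865558, minus strand) encodes DEC2, known with DEC1 for a role in the self-renewal of alveolar macrophages. It had 9.15 and 8.88 CPM in control mice on the control diet, 9.63 and 9.30 CPM in control mice on TJ-41, 38.7 and 45.5 CPM in the model on the control diet and 48.0 and 46.8 CPM in the model on TJ-41. This was the widest gap of the 8 genes, with the lowest model library at 4.02 times the highest control mice library, and the pooled log2 SD within groups was 0.087. The log2 fold change was 2.22 (SE 0.18) on the control diet and 2.32 (SE 0.18) on TJ-41. Gm43909, on the opposite strand, shares 1280 exonic bases with it and had 80 counts in all, beside 4172 for Bhlhe41. The DEC genes did not keep their balance, since per kb of exons Bhlhe40 stood at 8.74 to 13.5 times the level of Bhlhe41 in control mice and at 4.47 to 6.37 times in the COPD mice model.

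In whole lung RNA, fewer cells of a type and less RNA per cell cannot be told apart. The summed level of the 11 alveolar macrophage markers was 853 to 1032 CPM in control mice and 1217 to 1835 CPM in the model, and 0 of the 11 were called in any comparison. The gap in the sum lay in Chil3, with 371 to 476 CPM in control mice and 625 to 1387 CPM in the model. The other 10 markers summed to 470 to 589 CPM in control mice and 448 to 640 CPM in the model, which overlapped. Siglecf was lower in the model, with 12.2 to 21.8 CPM in control mice and 2.87 to 9.25 CPM in the model. The part of these cells in the level of Bhlhe41 was not tested. Of the other lists, only Jchain among the 10 B and plasma cell markers was called, higher in the model on the control diet. The sum of that list was 832 to 946 CPM in control mice and 971 to 1603 CPM in the model. It includes Jchain, with 43.3 to 201 CPM in control mice and 314 to 895 CPM in the model. Of the 10 markers, 6 had a negative log2 fold change in the model on each diet, with medians of -0.31 on the control diet and -0.20 on TJ-41. None of the T cell, neutrophil, lung epithelium, endothelium, heart muscle, adipocyte, red cell, glucocorticoid response and immediate early genes was called in any comparison. This does not mean equal levels. All 5 endothelium genes were lower in the model on each diet. Their sum was 2859 to 3376 CPM in control mice and 2566 to 2833 CPM in the model. Of the 8 T cell genes, 8 were higher in the model on the control diet and 6 on TJ-41. For TJ-41 in the model, all 6 heart muscle and all 5 red cell genes were lower and all 8 neutrophil genes higher. No marker in these lists was at 0 in all libraries. The 9 lung epithelium markers summed to 32141 to 67746 CPM, so the labelled tissue carried its markers, and the highest sum was in replicate 2 of the model on the control diet, which also held the highest heart muscle and red cell sums (627 and 3755 CPM).

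**Figure D3:**
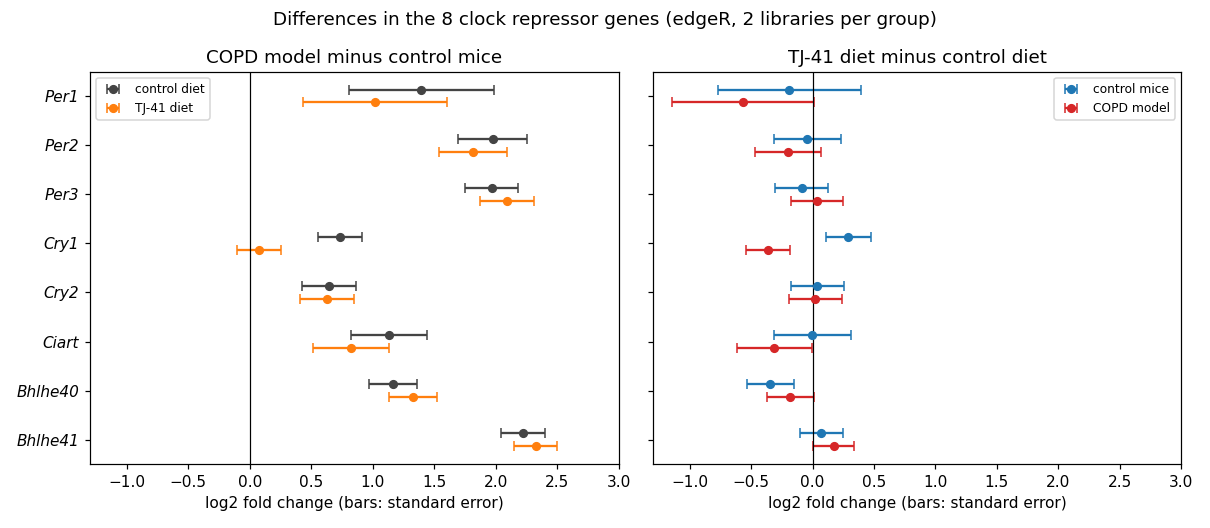
Log2 fold change of the 8 repressor genes with its standard error (bars), 2 libraries per group, for the COPD mice model minus control mice on each diet (left) and for TJ-41 minus control diet within control mice and within the model (right). The model differences reach 2.32 in Bhlhe41, while the diet differences lie between -0.57 and 0.29.

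Levels of different genes were ordered per length, as CPM per kb of exons. Bhlhe40 had the highest level of the 8 genes in every group, with 16.6 ± 1.80 (SD, n = 2) in control mice on the control diet and 37.1 ± 8.50 (SD, n = 2) in the model on the control diet. Per1 was second in every group by its mean, at 10.7 ± 4.62 (SD, n = 2) and 28.1 ± 15.2 (SD, n = 2), with libraries that overlapped those of a neighbour in every group but the model on TJ-41. In control mice on the control diet, Per3, Cry1 and Per2 were next to each other at 4.05, 4.04 and 3.90, which differed by less than their spread (SD 1.20, 0.35 and 1.23). In the model on the control diet Per3 and Per2 came next, at 15.8 ± 0.74 and 15.3 ± 1.58 (SD, n = 2), above Cry2 at 14.0 ± 1.01 and Cry1 at 6.72 ± 0.47 (SD, n = 2), and the neighbours Per3 and Per2, and Per2 and Cry2, differed by less than the larger of their SDs. Bhlhe41 was lowest in control mice, at 1.34 ± 0.029 (SD, n = 2), and with 7.06 ± 0.12 (SD, n = 2) it passed Cry1, at 5.22 ± 0.024, in the model on TJ-41.

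**Figure D4:**
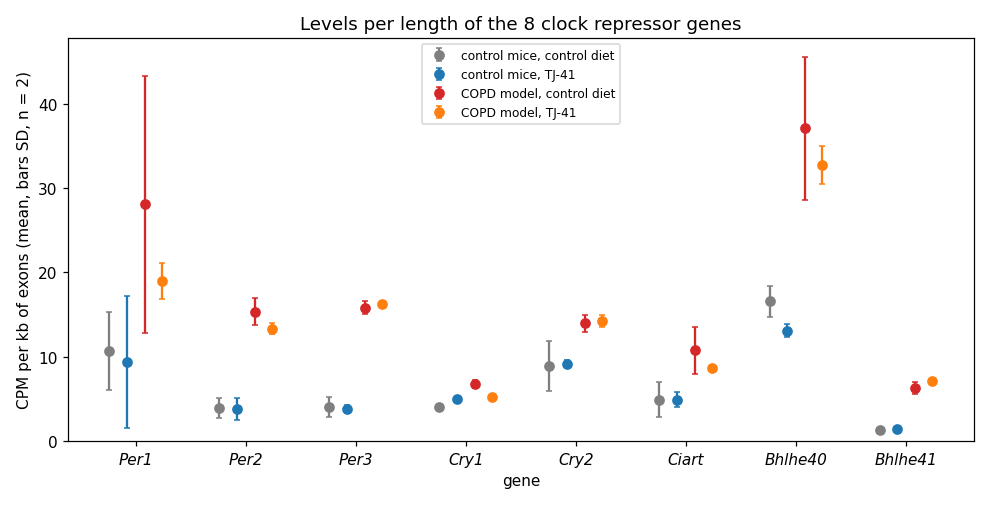
Level of the 8 repressor genes in CPM per kb of exons (linear axis from 0), as the mean of 2 libraries with the SD as bars, in the 4 groups. Bhlhe40 is highest in every group. Per2 and Per3 lie at about the level of Cry1 in control mice and well above it in the model. Per1 has the widest bars in every group but the model on TJ-41, where Bhlhe40 has.

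The order of the 4 groups was alike across the repressors only between control mice and the model, which the choice of the genes used. By log2 fold change, TJ-41 was below the control diet in 5 of the 8 genes and above it in 3. These counts were the same in control mice and in the model. Both control mice groups were below both model groups in all 8, and the diets overlapped within control mice and within the model in Per1, Per3, Cry2 and Ciart. Per2 and Bhlhe40 overlapped between diets in 1 of these pairs each, and Cry1 and Bhlhe41 in none. Within groups, the pooled log2 SD was 0.87 for Per1, 0.39 for Ciart and 0.35 for Per2, then 0.25 for Cry2, 0.24 for Per3 and 0.20 for Bhlhe40, and it was lowest for Bhlhe41 and Cry1 at 0.087 and 0.082. The standard error of the fold change was 0.59 for Per1 and 0.18 for Bhlhe41 on the control diet, although Per1 had more counts.

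The other arm of the loop was measured beside the repressors, in 13 further clock genes of which 12 passed the filter (Rorb did not). The model difference of these genes comes from the contrast that guided the choice of the repressors and is a description too. Arntl, which encodes BMAL1, had 36.8 to 54.7 CPM in control mice and 2.87 to 7.67 CPM in the COPD mice model, the reverse of the repressors. Clock lay at 121 to 197 CPM in control mice and at 61.2 to 98.4 CPM in the model. Nr1d1 was 78.6 to 140 CPM in control mice and 202 to 318 CPM in the model, and Dbp was 8.76 to 21.3 CPM in control mice and 185 to 200 CPM in the model. Of the 12 genes, 3 were called higher on the control diet (Dbp, Tef and Hlf), beside 0.102% of all genes tested, and 2 lower (Arntl and Npas2), beside 0.0195%. On TJ-41 Nr1d1 was called higher as well, where 0.0584% of all genes were called higher and 0.0195% lower. Nothing is read from these counts either.

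The distance between a repressor and its activator was read in each library as the log2 ratio of their levels per kb of exons, with Arntl as the activator. For Per3 it ran from -1.07 to 0.00080 in control mice and from 4.02 to 5.32 in the COPD mice model. For Per2 it ran from -1.35 to -0.037 in control mice and from 3.66 to 5.43 in the model. Bhlhe41 was at -2.34 to -1.89 in control mice and at 2.52 to 4.15 in the model, and Ciart at -0.77 to 0.38 and at 3.04 to 5.06. In each case the highest value was in replicate 2 of the model on the control diet, the library with the lowest Arntl, at 2.87 CPM.

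**Figure D5:**
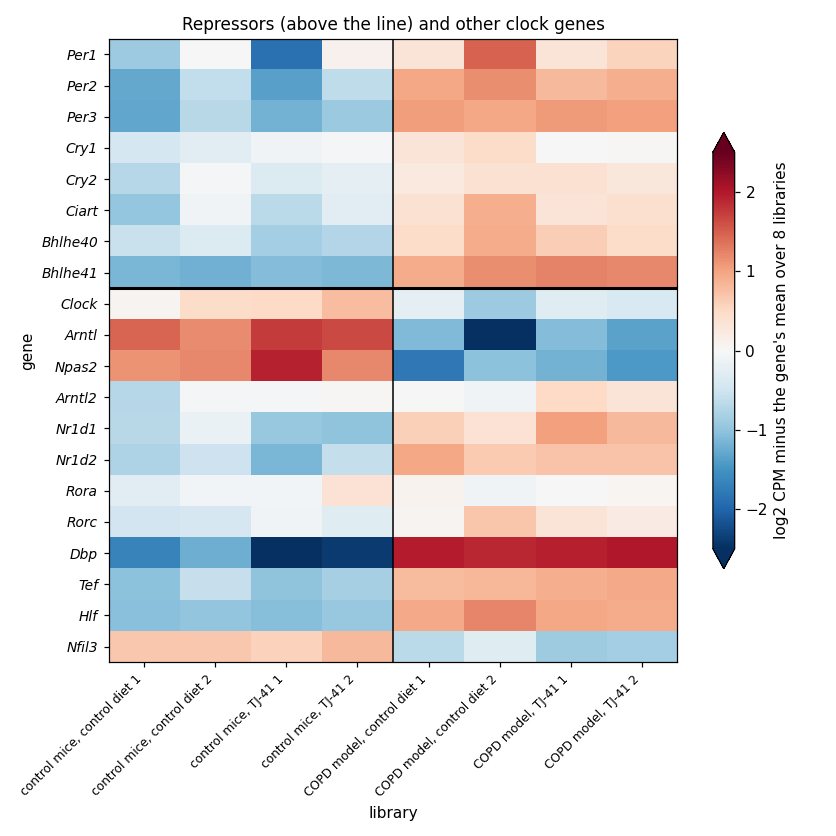
Log2 CPM minus the mean of the gene over 8 libraries, for the 8 repressors (above the horizontal line) and the 12 other clock genes tested, in the 4 control mice libraries (left of the vertical line) and the 4 model libraries (right). Repressors, Dbp, Tef, Hlf, Nr1d1 and Nr1d2 are higher (red) in the model, and Arntl, Npas2, Clock and Nfil3 are lower (blue).

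The genes whose pattern over the 8 libraries was most like that of each repressor were ranked among 18057 genes by the root mean square difference of centred log2 CPM, as a description over 8 libraries that share their groups. Per2 was most like Per3, another repressor, at 0.18, followed by Gm45819 (0.18), Tef (0.22) and Hlf (0.22). Per3 was most like Per2 (0.18), Tef (0.18) and Hlf (0.18), and Bhlhe41 most like Hlf (0.17), then Per3 (0.24). TEF and HLF, like DBP, activate D-boxes, and their part in these patterns was not tested. Tef itself had 126 to 170 CPM in control mice and 439 to 490 CPM in the model, and Hlf 18.6 to 20.2 CPM and 74.3 to 91.7 CPM.

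The remaining repressors were like other genes. Ciart was nearest to Fkbp5 (0.13), a glucocorticoid target with 14.6 to 25.6 CPM in control mice and 33.6 to 42.5 CPM in the model, then to Tnfsf11 and Ighv1-5. Cry2 was nearest to Cpeb1 (0.083), Eef2k and Micall2, and Bhlhe40 to Epop (0.15), Crmp1 and Sord. Per1 had the poorest nearest match, Alkal1 at 0.28 with no more than 2.56 CPM in any library, followed by Pdcd1 and Mettl21e. Cry1 spanned only 0.89 on the log2 scale over the 8 libraries and was not ranked.

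Genes that act on PER and CRY proteins were examined as lists. The list of 17 modifiers holds the casein kinases that mark PER for decay, the F-box proteins that deliver PER and CRY to the proteasome, and phosphatases. None was called in any of the 5 comparisons, where 0.102% of genes were called higher in the model on the control diet. The smallest p there belonged to Usp2, a deubiquitinase that is itself a clock output, with a log2 fold change of 1.04 (SE 0.26), and on TJ-41 to the phosphatase subunit gene Ppp1cb at -0.51 (SE 0.21). The list of 10 partners of the PER and CRY complex, among them Nono, Sfpq and Hdac1, had 0 calls in the 5 comparisons as well, and its smallest p belonged to Hdac1 at 0.29 (SE 0.19) on the control diet and to the helicase gene Ddx5 at -0.36 (SE 0.19) on TJ-41. The median log2 fold change of the model on the control diet was 0.046 for the modifiers and 0.0083 for the partners.

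Whether the TJ-41 diet shifted the repressors was tested separately in control mice and the model. These comparisons share libraries with those above, so each is given with its own values. In control mice 0 of the 8 repressors were called, beside 0% of all genes tested (quasi-likelihood test of edgeR, Benjamini-Hochberg adjusted), and 0 had an unadjusted p under 0.05, against 336 of all genes. DESeq2 called 10 genes and none of the 8. The median log2 fold change of the 8 genes was -0.022, beside -0.0018 over all genes. The largest difference was in Bhlhe40, at -0.34 (SE 0.19, adjusted p = 0.996 by edgeR over 20546 genes), with both TJ-41 libraries below both control-diet libraries. Cry1 differed by 0.29 (SE 0.18, adjusted p = 0.996 by edgeR), with both TJ-41 libraries higher. The other log2 fold changes lay between -0.19 in Per1 (SE 0.58) and 0.070 in Bhlhe41 (SE 0.18).

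In the COPD mice model 0 of the 8 were called on TJ-41 against the control diet, beside 0.00487% of all genes, which was 1 gene, and 0 had an unadjusted p under 0.05, against 842 of all genes. DESeq2 called 14 genes and none of the 8. The median of the 8 genes was -0.19, beside -0.015 over all genes. Per1 had the largest difference at -0.57 (SE 0.58, adjusted p = 0.991 by edgeR over 20546 genes). It rested on the library with 219 CPM, and without that library it was 0.13. Cry1 differed by -0.36 (SE 0.18, adjusted p = 0.991 by edgeR), with both TJ-41 libraries below both control-diet libraries. Ciart differed by -0.31 (SE 0.31), Per2 by -0.20 (SE 0.27) and Bhlhe40 by -0.18 (SE 0.19), while Bhlhe41 differed by 0.17 (SE 0.17), Per3 by 0.037 (SE 0.21) and Cry2 by 0.024 (SE 0.22). Without replicate 1 of the control-diet model these were -0.55 in Ciart, -0.30 in Per2, -0.40 in Bhlhe40, 0.058 in Bhlhe41, 0.085 in Per3 and -0.048 in Cry2. Without replicate 2 they were -0.022, -0.094, 0.072, 0.29, -0.012 and 0.097 in the same order, so that of these 6 genes only Ciart, Per2 and Bhlhe41 kept their sign. Per1 was -1.03 without replicate 1.

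Libraries on the diets did not overlap in 3 of the 8 genes in control mice (Cry1, Bhlhe40 and Bhlhe41), beside 38.2% of all genes tested. In the COPD mice model they did not overlap in 3 (Per2, Cry1 and Bhlhe41), beside 29.0%. With 2 libraries a group these shares are near the background. The standard errors of the diet effects ran from 0.17 to 0.58.

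The difference between the diet effects in the model and in control mice gave 0 calls among the 8 genes, beside 0% of all genes tested, with 672 genes at an unadjusted p under 0.05 (quasi-likelihood test of edgeR, Benjamini-Hochberg adjusted). DESeq2 called 17 genes and none of the 8. Cry1 was the one repressor with an unadjusted p under 0.05. Its difference was -0.66 on the log2 scale (SE 0.26, unadjusted p = 0.0300, adjusted p = 0.999 by edgeR), and it kept its sign with any 1 library left out, from -0.75 to -0.57. The other 7 differences lay between -0.38 (SE 0.82) in Per1 and 0.16 (SE 0.27) in Bhlhe40. In the diet comparisons and their difference no gene of the other clock loop, the modifiers or the partners was called. In the clock loop, the smallest p in control mice belonged to Dbp (log2 fold change -1.01, SE 0.19, adjusted p = 0.996 by edgeR). Dbp had 15.6 and 21.3 CPM in control mice on the control diet and 8.76 and 9.51 CPM on TJ-41. In the model the smallest p belonged to Nr1d1 (0.43, SE 0.21, adjusted p = 0.991 by edgeR). For the difference between the diet effects it belonged to Dbp (1.07, SE 0.26). Nr1d1 differed there by 1.00 (SE 0.29), and both had an adjusted p of 0.999 by edgeR. Among the modifiers, the smallest p belonged to the casein kinase 2 subunit genes Csnk2b in control mice (-0.31, SE 0.19, adjusted p = 0.996 by edgeR) and Csnk2a1 in the model (-0.41, SE 0.17, adjusted p = 0.991 by edgeR). Among the partners it belonged to Rack1 in control mice (-0.37, SE 0.23) and to Nono in the model (-0.33, SE 0.16). For the difference between the diet effects it belonged to Csnk2a1 (-0.58, SE 0.25) and Rack1 (0.44, SE 0.32), both with an adjusted p of 0.999 by edgeR.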

How the data were processed

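Each library came as 1 file of raw counts for Ensembl genes, deposited as whole numbers, which the authors made from reads aligned to mm10 (GRCm38). The submitters' processing notes name HISAT2 and edgeR without versions. The counting program, annotation and strand setting are not given in the sources used here. Of 52636 identifiers, 52489 were found in GENCODE M21, which gave names, positions and exon lengths.

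The count tests used edgeR 4.0.16 under R 4.3.3 (filterByExpr with a minimum count of 10 and total of 15, TMM, quasi-likelihood test on all 4 groups, 4 residual degrees of freedom), with Benjamini-Hochberg adjustment over 20546 genes. A standard error was the log2 fold change divided by the root of F. CPM used the TMM factors (0.935 to 1.02). The common biological coefficient of variation was 0.208. Total counts per library were 18767295 to 20888042, and limits from counts cover counting error only. In data simulated for the model on the control diet over 20546 genes, 24 of 100 genes changed 2-fold and 94 of 100 changed 4-fold were called, with 13 of 20346 unchanged genes.

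Groups and replicate numbers come from the labels, which write the diet both as TJ41 and as TJ4. Replicates were distinct libraries, which differed by 11.5 to 85.2 times the counting variance. Over all genes tested, same-numbered libraries did not deviate together (correlations from -0.234 to 0.108). In Per1, Per2, Cry1 and Ciart, however, replicate 2 lay above replicate 1 in every group, which was not so in the other repressors. The cause was not tested.

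The repressor genes and all lists, motifs and tests were chosen with earlier results of these data known. All 8 repressors were named. Arntl, Clock, Nr1d1 and Dbp were named from the other clock loop for their levels, with other called members, the gene with the smallest p was named from the modifier and partner lists, and for repressors with a log2 range over 1 the 3 most alike genes (mean level from 1 CPM) were named. Lists were also made for alveolar macrophage, B and plasma cell, T cell, neutrophil, lung epithelium, endothelium, heart muscle, adipocyte, red cell, glucocorticoid response, immediate early and hypoxia genes. Alternatives were library size alone, DESeq2 1.42.0, all genes that had 1 count or more, relative log expression factors, only the groups compared, the false discovery rate alone, a replicate block and each library left out. A crossed replicate block was added after the data were seen.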

Additional observations from a re-analysis of the deposited data

Results flagged for a closer look

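Cry1 was set apart because its diet effects ran in opposite directions in control mice and the model. In control mice both TJ-41 libraries (16.2 and 16.8 CPM) lay above both control-diet libraries (12.7 and 14.3 CPM), and in the model both TJ-41 libraries (17.4 and 17.5 CPM) lay below both control-diet libraries (21.3 and 23.5 CPM). The difference between the effects was -0.6561 on the log2 scale (adjusted p = 0.999 in edgeR's quasi-likelihood test over all genes), so it did not pass the correction. Groups of 2 libraries were too small for a check on single outlying samples.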

How the results depend on the processing

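The count of repressors called higher in the model on the control diet, 3, was 1 with only the groups compared and ran from 0 to 5 with single libraries left out. On TJ-41 the count, 2, was 4 with DESeq2, with all genes of at least 1 count and with only the groups compared, and ran from 0 to 4 with single libraries left out. With the replicate block the counts were 3 and 3, and the crossed replicate block gave 3 on the control diet and 36 genes over all. Over all genes, the calls on the control diet (25) were 174 with DESeq2, 147 with all genes of at least 1 count and 3 to 1326 with single libraries left out, and those on TJ-41 (16) were 125, 89, 248 with only the groups compared and 2 to 169. The diet comparisons and their difference gave 0 repressors under every alternative run, although without replicate 1 of the model on the control diet 712 genes were called for TJ-41 in the model. The model differences of the repressors kept their sign under every alternative run. Some diet differences changed sign. Under other settings with all libraries these were near 0, but with single libraries left out they included the -0.57 of Per1 in the model. Ciart in control mice was 0.0027 with DESeq2, 0.0026 with relative log expression factors and 0.0356 with the replicate block, against -0.0009, and the difference between diet effects for Cry2 was 0.0470 by library size alone, against -0.016. With single libraries left out, the diet effect in control mice ran from -1.48 to 0.47 in Per1, -0.45 to 0.32 in Per2, -0.36 to 0.25 in Per3, -0.27 to 0.42 in Cry2 and -0.38 to 0.51 in Ciart. In the model it ran from -1.03 to 0.13 in Per1, -0.012 to 0.085 in Per3, -0.048 to 0.097 in Cry2 and -0.40 to 0.072 in Bhlhe40. The difference ran from -1.04 to 0.92 in Per1, -0.52 to 0.25 in Per2, -0.21 to 0.40 in Per3, -0.40 to 0.29 in Cry2, -0.82 to 0.066 in Ciart, -0.055 to 0.42 in Bhlhe40 and -0.012 to 0.23 in Bhlhe41. The cause of these changes was not tested. With the replicate block the 1 gene called for TJ-41 in the model, which is no repressor, was no longer called, and the calls of repressors in the diet comparisons stayed at 0. In data simulated for the model on the control diet, 24 of 100 genes changed 2-fold were called. A call itself needs more than a 2-fold change, and the median log2 fold change of these genes was 0.93. How far that threshold lowered the count was not tested. The diet comparisons were not simulated.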
